A study of Homo sapiens with 6 samples.

Results

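The RNA of MCF10A cells was examined for 10 genes of the core transforming growth factor β (TGFβ) pathway, out of 19198 genes measured. The genes were taken by name: the ligands TGFB1, TGFB2 and TGFB3, the receptors TGFBR1, TGFBR2 and TGFBR3, the signal transducers SMAD2 and SMAD3, the inhibitory SMAD7, and the ubiquitin ligase SMURF2. All 10 were present and all 10 passed the filter on low values. MCF10A is an immortalized, non-tumorigenic line of human mammary epithelial cells that depends on added growth factors. The 3 control samples came from medium with 5% horse serum, 10 µg/ml human insulin, 20 ng/ml EGF, 100 ng/ml cholera toxin and 0.5 µg/ml hydrocortisone. The 3 growth factor-depleted samples came from cells grown with the same serum but without those 4 additions. Each condition is thus 1 medium and 1 cell line, and the withdrawal of the single factors and the time without them were not separated or stated in the labels. Nothing says that the samples of a condition were separate cultures, so p-values measure the spread between these samples, which may be technical.

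In this pathway a ligand dimer binds TGFBR2, which recruits and phosphorylates TGFBR1, and TGFBR1 then phosphorylates SMAD2 and SMAD3. These move to the nucleus with SMAD4 and regulate transcription. TGFBR3, also called betaglycan, has no kinase of its own and presents ligand, TGFB2 above all, to the signaling receptors. SMAD7 is a feedback inhibitor that is itself induced by the pathway, and it brings SMURF2 to the receptors and so to their degradation. In mammary epithelium TGFβ restrains proliferation and is a classical inducer of epithelial to mesenchymal transition (EMT). The comparison addresses how far the RNA of this machinery differed between cells with and without growth factors, a condition studied as an EMT model to which no TGFβ was added.

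The 3 ligand genes encode closely related proteins, and their promoters are shown so that the sequences before their starts can be compared beside their levels. The 250 bases before each RefSeq start site (GRCh38.p14) are given 5′ to 3′ on the gene's strand. Capitals mark every match, on either strand, to the CRE core ACGTCA, the RUNX motif TGTGGT, the AP-1 motif TGANTCA, the SMAD palindrome GTCTAGAC, the short SMAD motif CAGAC, the TATA box TATAAA and the E-box CACGTG. The windows are chr19:41353923-41354172 on the minus strand for TGFB1, chr1:218345086-218345335 on the plus strand for TGFB2 and chr14:75981996-75982245 on the minus strand for TGFB3.
TGFB1: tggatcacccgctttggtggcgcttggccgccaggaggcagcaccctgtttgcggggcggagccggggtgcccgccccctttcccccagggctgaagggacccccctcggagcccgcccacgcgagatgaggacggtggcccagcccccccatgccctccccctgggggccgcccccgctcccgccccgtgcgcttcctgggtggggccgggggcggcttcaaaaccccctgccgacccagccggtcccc
TGFB2: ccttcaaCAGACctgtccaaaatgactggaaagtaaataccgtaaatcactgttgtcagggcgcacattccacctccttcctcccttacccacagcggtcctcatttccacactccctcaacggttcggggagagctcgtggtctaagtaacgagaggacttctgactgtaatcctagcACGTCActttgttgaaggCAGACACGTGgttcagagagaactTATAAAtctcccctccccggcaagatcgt
TGFB3: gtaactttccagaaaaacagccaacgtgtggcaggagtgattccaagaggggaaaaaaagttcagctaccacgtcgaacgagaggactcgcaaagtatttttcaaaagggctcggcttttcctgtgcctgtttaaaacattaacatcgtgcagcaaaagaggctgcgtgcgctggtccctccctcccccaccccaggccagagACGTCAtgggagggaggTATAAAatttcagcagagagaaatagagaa

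The TGFB1 window was 76.8% G+C and held none of these motifs, whereas TGFB2 and TGFB3 were 50.4% and 49.2% G+C. TGFB2 and TGFB3 each held a TATA box, which began 29 and 30 bases before the start, and a CRE core, which began 71 and 47 bases before it. Of 34788 distinct promoter windows, 10.8% held the TATA box and 7.09% the CRE core. TGFB2 further held short SMAD motifs from 243 and 53 bases before the start and an E-box from 49 bases before it, and that E-box shares 1 base with the nearer short SMAD motif. The short SMAD motif is short and occurred in 38.0% of windows, the E-box in 6.31%. The RUNX motif was in 0 of the 10 windows of the studied genes and in 11.0% of all windows, the AP-1 motif in 0 and in 6.59%, and the SMAD palindrome in 0 and in 0.178%. Outside the ligands, the short SMAD motif was found in TGFBR1 and SMAD7 and the E-box in SMAD3. The TGFB2 window also overlaps exons of the antisense gene TGFB2-AS1, and the TGFB3 window lies in an intron of longer TGFB3 transcripts.

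Levels are given as normalized counts, that is, reads per gene divided by the size factor of the sample, not by the length of the gene. Depth ranged from 7472418 to 28672630 reads on genes per sample, with depleted replicate 3 the shallowest. A gene was called when limma gave a Benjamini-Hochberg adjusted p under 0.05 over all 16988 genes tested and the change was at least 2-fold. Depleted replicate 1 differed from depleted replicates 2 and 3 for several of these genes, and its value is given separately for each of the 10. It was not the only sample that mattered. Leaving out control replicate 3 raised the share of all genes called from 6.33% to 14.6%, whereas it was 5.41% without depleted replicate 1. The cells are labelled as luminal ductal. In the control samples basal KRT5 was between 12739 and 38503 normalized counts and basal KRT17 between 5882 and 16142. Luminal KRT8 was between 2442 and 8635 and luminal KRT18 between 1716 and 6188. The other basal markers were lower, TP63 at 270.7 to 1615 and KRT14 at 12.8 to 264.4. All 4 basal and all 8 luminal markers were detected in the controls. The summed luminal markers were at 18676, 18094 and 9115 normalized counts in the controls and at 18425, 20875 and 31712 in the depleted samples. Of the 8 only KRT19 was called, as lower. The log2 difference was positive for 2, KRT8 and KRT18, and negative for the other 6, with a median of -0.85. The summed basal markers were at 48741, 29299 and 20518 and at 20786, 72551 and 138825, and of the 4 only TP63 was called, as lower. The depleted sums were mostly KRT17, at 19236, 61385 and 123480. The log2 difference was positive for KRT14 and KRT17 and negative for KRT5 and TP63. Fewer cells of a type and less RNA per cell cannot be told apart in such bulk samples.

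Of the 10 genes, TGFB2, SMAD7 and SMURF2 were up-regulated without growth factors and 0 were down-regulated. Over all genes tested, 6.33% were called, 4.36% as higher and 1.97% as lower. The median log2 difference of the 10 was 0.57, compared with -0.03 over all genes. In 5 of the 10 the conditions did not overlap, 4 with every depleted sample above and TGFBR2 with every depleted sample below, whereas 25.6% of all genes did not overlap. With edgeR on the recovered reads 3 of the 10 were called, beside 5.72% of all genes, and with DESeq2 3, beside 12.4%. None of these calls survived every removal of 1 sample (the 6 leave-one-out fits). Without control replicate 1 or 2, or without depleted replicate 2 or 3, 0 of the 10 were called, beside 3.73%, 3.97%, 2.67% and 2.75% of all genes in those fits. Without control replicate 3 the calls were TGFB1, SMAD7 and SMURF2, beside 14.6% of all genes, and without depleted replicate 1 they were TGFB2 and SMAD7, beside 5.41%.

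**Figure D1:**
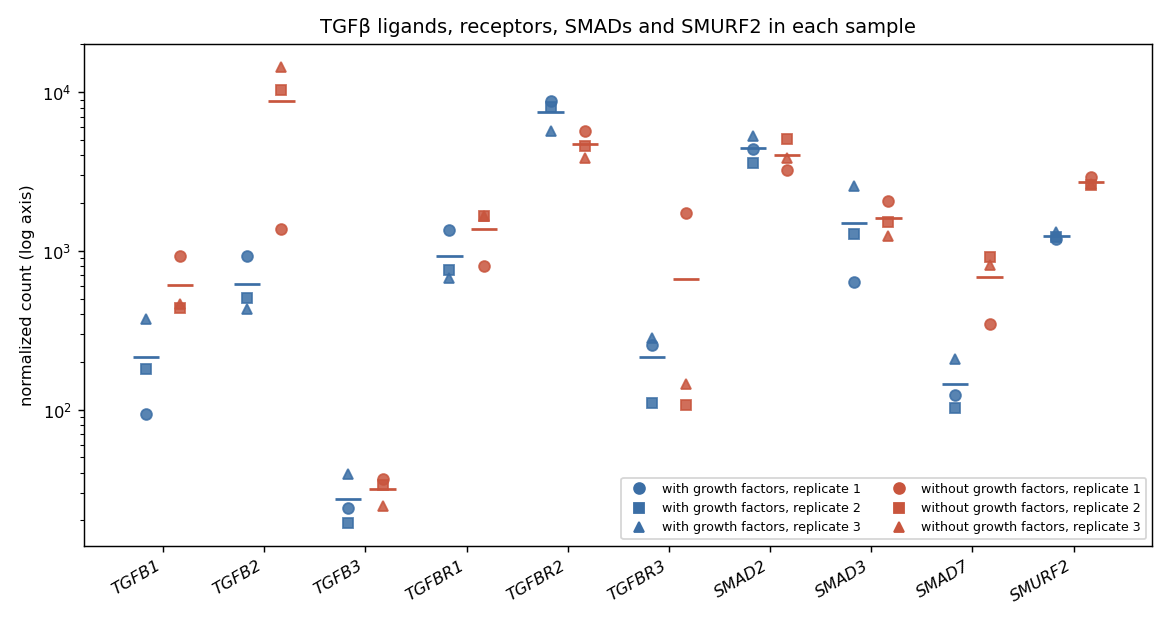
Normalized counts (log axis) of the 10 genes in the 3 samples with (blue) and the 3 samples without growth factors (red), where the marker shape gives the replicate number and a line the mean of the condition. TGFB1, TGFB2, SMAD7 and SMURF2 lie higher in all depleted samples, TGFBR2 lies lower in all of them, and depleted replicate 1 (red circle) stands apart for TGFB2 and TGFBR3.

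Among the ligands, TGFB2 (ENSG00000092969.10, chromosome 1, 218345336 to 218444619 of hg38, plus strand) gained most. TGFB2 is the isoform that needs TGFBR3 for efficient binding to TGFBR2. It was at 929.9, 502.7 and 429.9 normalized counts in control replicates 1 to 3 and at 1369, 10403 and 14469 in depleted replicates 1 to 3. The conditions did not overlap, but the first depleted sample was much closer to the controls than to the other depleted samples, which averaged 9.08 times its level. The log2 difference was 3.33 ± 0.80 (SE, n = 3 per condition, 95% interval 1.50 to 5.17, limma adjusted p = 0.047), a 10.1-fold rise. Without depleted replicate 1 the difference was 4.39 (limma adjusted p = 0.00253), and it passed in no other leave-one-out fit. In the annotation 11.6% of the exon bases of TGFB2 are shared with the antisense TGFB2-AS1 and 22.7% with TGFB2-OT1 on the same strand, and TGFB2-AS1 itself was at 0 to 2.51 normalized counts in the controls and at 4.58, 19.7 and 29.1 in depleted replicates 1 to 3.

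TGFB1 (ENSG00000105329.8, chromosome 19, 41301587 to 41353922, minus strand) is the ligand most often used to induce EMT in culture. Its level was 94.0, 179.9 and 373.8 normalized counts in the controls and 934.5, 434.0 and 460.6 in the depleted samples. Every depleted sample was above every control, and here depleted replicate 1 was the highest, at 2.09 times the mean of the others. The log2 difference of 1.62 ± 0.54 (SE, n = 3, 95% interval 0.39 to 2.85) did not pass (limma adjusted p = 0.129), and it passed in 1 of the 6 leave-one-out fits, that without control replicate 3 (limma adjusted p = 0.0244). TGFB1 shares 6.59% of its exon bases with HNRNPUL1 on the other strand, which was at 3220 to 5058 normalized counts, and whether the counting used the strand is not given in the sources used here. TGFB3 (ENSG00000119699.6, chromosome 14, 75958097 to 75983011, minus strand) is the least abundant of the 3. It was at 23.8, 19.3 and 39.4 normalized counts in the controls and at 36.6, 33.4 and 24.6 in the depleted samples, from 11 to 51 reads per sample. The conditions overlapped, and no difference was detectable at this depth (log2 difference 0.23, 95% interval -0.95 to 1.42, and -0.02 after quantile normalization).

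Scaled by transcript length, the make-up of ligand RNA also set depleted replicate 1 apart. TGFB2 was 79.5%, 54.9% and 33.4% of the summed ligand level in the controls and 40.2%, 91.4% and 93.4% in the depleted samples. The share averaged 56.0% ± 23.1 (SD, n = 3) with and 75.0% ± 30.2 without growth factors, a difference of 19.1 percentage points that did not pass an exact permutation test (two-sided p = 0.5, where the smallest p that 3 against 3 allows is 0.1). Leaving out depleted replicate 1 raised the difference to 36.5 percentage points. TGFB1 made up most of the remainder, 17.0% to 61.3% in the controls, 57.9% in depleted replicate 1 and 8.05% and 6.28% in depleted replicates 2 and 3. TGFB3 was between 0.272% and 5.23% in every sample. Depleted replicate 1 thus had shares of TGFB1 and TGFB2 within the range of the controls and a share of TGFB3 below it, while TGFB2 exceeded 91% in the other depleted samples.

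**Figure D2:**
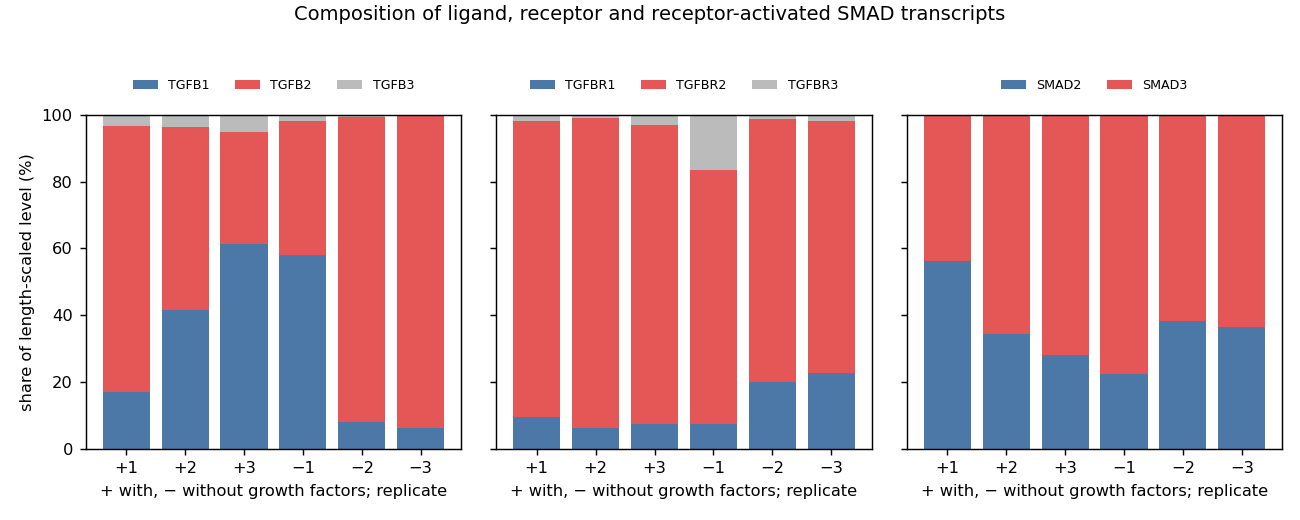
Share of the length-scaled level (%) contributed by each ligand, each receptor and each of SMAD2 and SMAD3, with 1 stacked bar per sample (+ with, − without growth factors, replicates 1 to 3). TGFB2 fills over 91% of the ligand bar in depleted replicates 2 and 3 but 40.2% in depleted replicate 1, where TGFBR3 reaches 16.6% of the receptor bar.

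None of the 3 receptors was called. TGFBR2 (ENSG00000163513.16, chromosome 3, 30606601 to 30694142, plus strand), the kinase that first binds ligand, was at 8824, 8050 and 5721 normalized counts in the controls and at 5672, 4576 and 3839 in the depleted samples. All depleted samples were lower, although control replicate 3 and depleted replicate 1 were nearly level, and the log2 difference of -0.68 (SE 0.32, 95% interval -1.41 to 0.06) did not pass (limma adjusted p = 0.292). TGFBR1 (ENSG00000106799.11, chromosome 9, 99104038 to 99154192, plus strand), the kinase that phosphorylates the SMADs, was at 1355, 763.4 and 673.9 in the controls and at 798.1, 1667 and 1657 in the depleted samples. It was high in control replicate 1 and in depleted replicates 2 and 3, the conditions overlapped, and the log2 difference was 0.55 (95% interval -0.36 to 1.47, limma adjusted p = 0.515).

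TGFBR3 (ENSG00000069702.9, chromosome 1, 91680343 to 91906335, minus strand) varied more within the depleted condition than between conditions. Its level was 255.7, 109.6 and 282.3 normalized counts in the controls and 1734, 106.2 and 145.3 in the depleted samples. Depleted replicate 1 was thus at 13.8 times the mean of the other depleted samples, which were within or just under the control range. The log2 difference of 0.59 (SE 0.97, 95% interval -1.62 to 2.80, limma adjusted p = 0.802) turned to -0.68 without depleted replicate 1, and DESeq2 gave no adjusted p for the gene. The samples that were highest in TGFB2 were not those highest in its co-receptor.

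Among receptor transcripts scaled by length, TGFBR2 dominated in every sample. TGFBR3 was 1.84%, 0.904% and 3.16% of the receptor level in the controls and 16.6%, 1.31% and 2.04% in the depleted samples. Its mean share was 1.97% ± 1.13 (SD, n = 3) and 6.65% ± 8.62, and the difference of 4.68 percentage points did not pass (exact two-sided permutation p = 0.6) and was -0.294 without depleted replicate 1. The share of TGFBR2 was narrower within each condition, at 88.7%, 92.9% and 89.5% in the controls and 75.9%, 78.7% and 75.3% in the depleted samples. The conditions did not overlap for that share, at 90.4% ± 2.27 and 76.6% ± 1.8 (SD, n = 3), which was singled out after its values were seen and so has no test. In depleted replicates 2 and 3 the rest was mostly TGFBR1, at 20.0% and 22.7%, whereas in depleted replicate 1 it was mostly TGFBR3.

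Neither of the receptor-activated SMADs was called, and the interval of SMAD3 was wide. SMAD2 (ENSG00000175387.14, chromosome 18, 47808957 to 47931146, minus strand) was at 4384, 3591 and 5323 normalized counts in the controls and at 3224, 5056 and 3859 in the depleted samples. The conditions overlapped, and the log2 difference of -0.14 had a 95% interval of -0.84 to 0.57 (limma adjusted p = 0.86). SMAD3 (ENSG00000166949.14, chromosome 15, 67063763 to 67195173, plus strand), which unlike the main form of SMAD2 binds DNA directly, was at 639.2, 1282 and 2549 in the controls and at 2075, 1522 and 1245 in the depleted samples. The controls spanned the depleted samples on both sides, and the log2 difference was 0.30 (95% interval -0.80 to 1.41, limma adjusted p = 0.793), or -0.20 without control replicate 1. SMAD3 made up 60.5% ± 14.7 (SD, n = 3) of the summed length-scaled level of SMAD2 and SMAD3 with growth factors and 67.5% ± 8.69 without, a difference that did not pass the exact permutation test (two-sided p = 0.6). That level depends on the length used, since the canonical SMAD2 transcript is 34626 bases long, and with the median length of coding transcripts (an alternative chosen after seeing the data) the shares were 18.3% and 22.5%.

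Both negative regulators were up-regulated. SMAD7 (ENSG00000101665.7, chromosome 18, 48919853 to 48950965, minus strand) was at 124.1, 101.9 and 208.6 normalized counts in the controls and at 345.1, 910.7 and 811.6 in the depleted samples. The conditions did not overlap, with depleted replicate 1 between the controls and the other depleted samples. The rise was 4.56-fold (log2 difference 2.19 ± 0.46 SE, 95% interval 1.13 to 3.25, limma adjusted p = 0.0281), and over the 6 leave-one-out fits the log2 difference was 1.93 to 2.63 and the limma adjusted p 0.0144 to 0.133. SMURF2 (ENSG00000108854.14, chromosome 17, 64542282 to 64662307, minus strand) was the most uniform of the 10, at 1182, 1228 and 1321 normalized counts in the controls and at 2919, 2616 and 2656 in the depleted samples. Here depleted replicate 1 was in step with the others. The rise was 2.19-fold (log2 difference 1.13 ± 0.24 SE, 95% interval 0.58 to 1.69, limma adjusted p = 0.0302), with log2 differences of 1.08 to 1.18 when each sample was left out. Over those 6 fits the limma adjusted p was 0.0159 to 0.14, and the gene was called in 1 of them. The call was also lost with the replicate number as a block (limma adjusted p = 0.141). SMURF2 shares 2.5% of its exon bases with CEP95 on the other strand, which was at 467.3 to 1379 normalized counts.

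**Figure D3:**
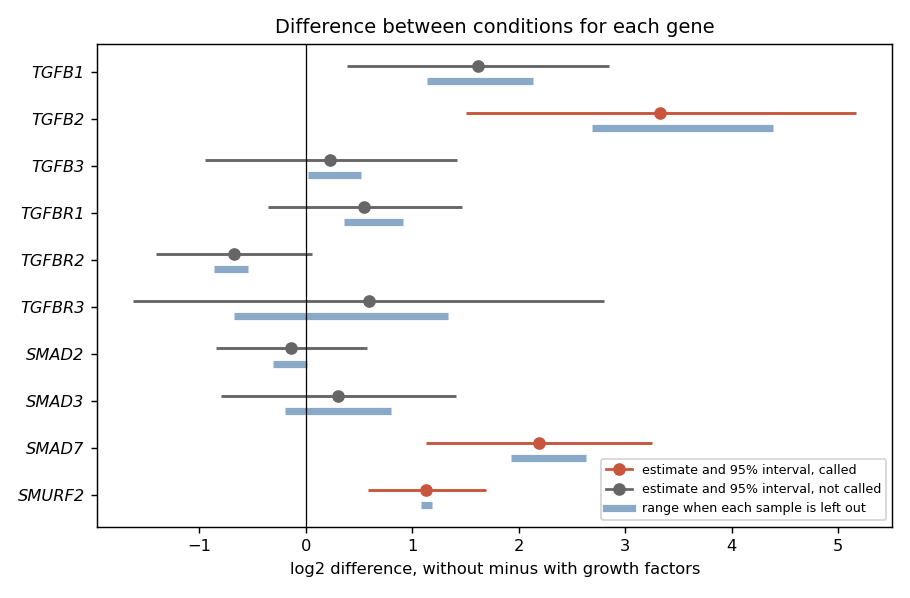
Log2 difference (without minus with growth factors) of each of the 10 genes, with the limma estimate as a point, its 95% interval as a thin line (red where called, grey where not) and the range over the 6 fits that each left out 1 sample as a blue bar. SMURF2 has the shortest bar, 1.08 to 1.18, and TGFBR3 the longest, -0.68 to 1.33, which crosses 0.

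Divided by canonical transcript length, the order of the 10 genes differed most at the top. With growth factors TGFBR2 led, at 1663 ± 357 normalized counts per kilobase (SD, n = 3), far above SMAD3 at 231 ± 150, SMURF2 at 199 ± 11.4, TGFBR1 at 143 ± 57.0 and SMAD2 at 128 ± 25.0. TGFB2 at 106 ± 46.0 and TGFB1 at 77.7 ± 51.6 followed, then SMAD7 at 43.4 ± 16.8, TGFBR3 at 34.1 ± 14.7 and TGFB3 at 8.01 ± 3.06. Among neighbours in this order, sample ranges separated only the first from the second gene and the last from the one before it. Without growth factors TGFB2 had the highest mean, 1491 ± 1143 per kilobase, but its samples overlapped those of TGFBR2 at 1037 ± 204. SMURF2 came next at 438 ± 26.4, with no overlap with TGFBR2 above it or with SMAD3 at 250 ± 65.4 below it. TGFB1 at 219 ± 101, TGFBR1 at 212 ± 76.8, SMAD7 at 206 ± 90.4, SMAD2 at 117 ± 26.9 and TGFBR3 at 104 ± 147 each overlapped the gene next to it in this order, and TGFB3 was again last at 9.20 ± 1.81. The place of SMAD2 rests on its long canonical transcript of 34626 bases, and so does the lead of TGFBR2 and TGFB2. The median length of coding transcripts is 1378 bases for SMAD2, 4567.5 for TGFBR2 and 5460.5 for TGFB2. Divided by these median lengths, SMAD2 would have the highest mean in both conditions.

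The genes whose log2 values followed TGFB2 most closely over the 6 samples, among the 11688 genes that averaged 100 normalized counts or more, were FIBCD1 (Pearson r = 0.9982), SIPA1L2 (r = 0.9976) and CFL2 (r = 0.9962). These are a description of 6 samples in 2 conditions, with no test. FIBCD1 was at 28.8, 19.9 and 14.8 normalized counts in the controls and at 44.9, 289.8 and 328.7 in the depleted samples. CFL2, a cofilin that severs actin filaments, went from 577.5 to 686.8 in the controls to 795.4, 1163 and 1234 in the depleted samples. In all 3, as in TGFB2, depleted replicate 1 was nearer to the controls than to the other depleted samples, which follows from choosing them by correlation with TGFB2.

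The wider pathway was covered by 6 lists of 46 genes, of which 43 were tested and the other 3 were not analysed here. Of the 43, 5 were up-regulated and 1 was down-regulated, 14.0% beside 6.33% of all genes, with a median log2 difference of 0.32. Without depleted replicate 1 the calls were 6 higher (ACVR1C, FST, INHBA, LTBP1, LTBP2 and USP11) and 0 lower of the 43, beside 5.41% of all genes. In the latent complex, which holds secreted ligand inactive in the matrix, 1 of 5 genes rose. This was LTBP2, a matrix protein that unlike LTBP1 and LTBP3 does not bind the latent ligand, at 645.4, 475.1 and 1138 normalized counts in the controls and 11563, 6926 and 5364 in the depleted samples (log2 difference 3.42 ± 0.42 SE, limma adjusted p = 0.00291). The call of LTBP2 held whichever sample was removed.

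Of the 5 genes that release the ligand from that complex, 1 rose and 1 fell, beside 4.36% of all genes called higher and 1.97% lower. ITGB5, the β5 integrin subunit, rose by 2.10 on the log2 scale (limma adjusted p = 0.0238), from 1602, 2316 and 913.9 normalized counts in the controls to 9707, 4589 and 5979 in the depleted samples. ITGB8, whose αvβ8 integrin activates latent TGFβ in epithelia and immune cells, fell by 2.31 (limma adjusted p = 0.0211), from 24041, 16174 and 34875 to 2966, 7193 and 5208. Both calls were lost in 4 of the 6 leave-one-out fits, those without control replicate 1 or any 1 of the depleted samples (highest limma adjusted p 0.0837 for ITGB5 and 0.0876 for ITGB8). THBS1, thrombospondin, which can activate the latent ligand in a soluble form, had the largest difference of the list, 2.65, and did not pass (limma adjusted p = 0.0741), although all depleted samples, at 58333, 107670 and 130565 normalized counts, were above all controls, at 37802, 15927 and 5517.

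Of 7 other receptors of the family tested, ACVR1C rose, and of 6 genes listed as activin ligands and antagonists, FST rose. That list also holds GDF11 and the proteoglycan gene DCN. Over all genes tested, 4.36% were called higher. ACVR1C, or ALK7, a type I receptor that signals through SMAD2 and SMAD3, was at 11.3, 5.27 and 29.5 normalized counts in the controls and at 51.3, 275.4 and 221.4 in the depleted samples (log2 difference 3.47 ± 0.81 SE, limma adjusted p = 0.0423). FST, follistatin, which neutralizes activins, was at 7.52, 16.4 and 7.87 in the controls and at 86.0, 191.5 and 167.7 in the depleted samples (log2 difference 3.69 ± 0.55 SE, limma adjusted p = 0.00661). ACVR1C was called in 2 of the 6 leave-one-out fits, those without control replicate 3 or depleted replicate 1 (highest limma adjusted p 0.176), and FST in 5, all but that without depleted replicate 2 (limma adjusted p = 0.0514). Both genes were near the lower end of what was measured with growth factors, where a few reads carry the value.

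Of the 5 other SMADs, 0 were called by limma. The largest difference was that of SMAD1, a transducer of BMP signals, at 0.80 (limma adjusted p = 0.248), while the common partner SMAD4 differed by 0.08 (95% interval -0.55 to 0.72, named after its value was seen). Of 15 adaptors, corepressors and modifiers of the SMADs, USP11 alone was called, 6.67% of the list beside 6.33% of all genes. USP11, a deubiquitinase that acts on the TGFβ receptor, rose 3.12-fold in means, from 353.4, 356.8 and 303.0 normalized counts in the controls to 1187, 811.1 and 1160 in the depleted samples (log2 difference 1.62 ± 0.28 SE, limma adjusted p = 0.0128). Depleted replicate 1 did not stand apart for USP11, and the call was lost without depleted replicate 3 (limma adjusted p = 0.0848).

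**Figure D4:**
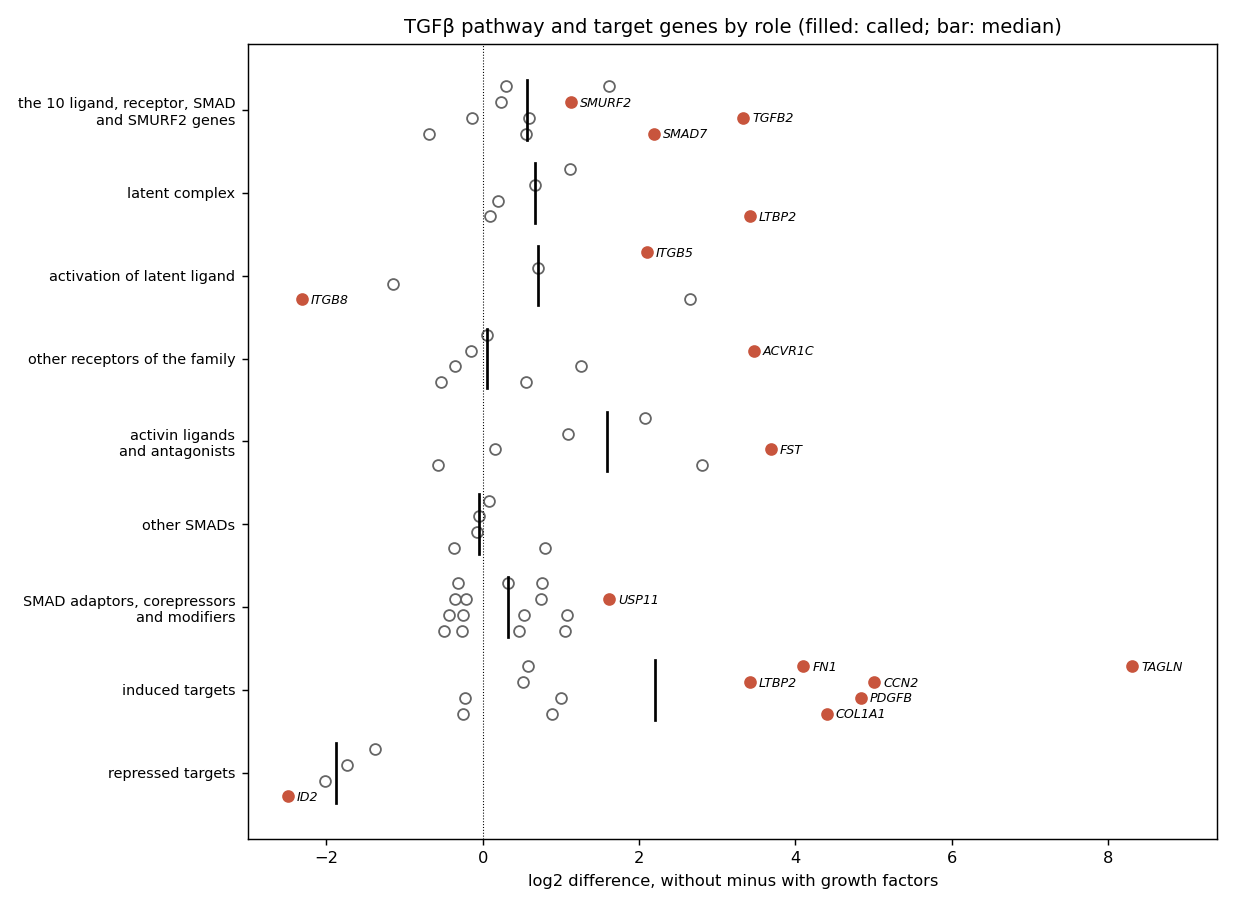
Log2 difference (without minus with growth factors) of each tested gene of the TGFβ pathway and of its known targets, 1 row per role, with called genes filled and named and the median of the row as a bar. The induced targets have a median of 2.21 and reach 8.31 for TAGLN, while the other SMADs stay between -0.36 and 0.80.

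Genes known to respond to TGFβ were examined as 13 induced and 4 repressed genes, of which 12 and 4 were tested. These lists, like those of the pathway, were chosen with earlier results of these data known, which limits any comparison with the share of all genes. Of the induced targets 6 were up-regulated and 0 down-regulated by limma, 6 of 12 beside 6.33% of all genes, with a median log2 difference of 2.21. They were TAGLN (transgelin, an actin-binding protein of smooth muscle, 8.31), CCN2 (connective tissue growth factor, 5.01), PDGFB (a growth factor for mesenchymal cells, 4.84), COL1A1 (type I collagen, 4.40), FN1 (fibronectin, 4.10) and LTBP2 (3.42), all as log2 differences with limma adjusted p between 4.2e-04 and 0.00652. TAGLN went from 97.8, 66.8 and 160.3 normalized counts in the controls to 13598, 36923 and 68259 in the depleted samples. All 6 stayed called whichever sample was removed. Most of them are also genes of matrix or contractile cells. The markers of fibroblasts moved with them, since 6 of the 7 tested were called higher and their summed level was 723, 574 and 938 normalized counts in the controls and 73210, 28269 and 27176 in the depleted samples. COL1A1 stands in both lists, and the part of the fibroblast markers in these results was not tested. LTBP2 is counted among the pathway genes and the induced targets, and DCN (decorin) among the pathway genes and the fibroblast markers. The immune marker PTPRC was at 0 to 1.97 normalized counts in the controls and at 10.1 to 13.8 in the depleted samples. Of the 4 immune markers only PTPRC and CD14 had values here, and their sum, mostly CD14, was 272 to 884 and 86.5 to 656. Of the 4 endothelial markers, 3 were tested and CDH5 was called higher, from 8.77, 4.10 and 4.92 normalized counts to 25.6, 119 and 101 (log2 difference 3.37, limma adjusted p = 0.0282). KDR was at 778.3, 32.2 and 66.9 and at 0, 24.9 and 22.4, VWF at 0.59 to 3.93 and at 2.75 to 13.4, and the sum of the list at 167 to 1787 and at 265 to 1610.

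Of the 4 repressed targets, ID2 was down-regulated, 1 of 4 beside 1.97% of all genes called lower, with a median log2 difference of -1.87. ID2, an inhibitor of basic helix-loop-helix factors, fell from 714.3, 769.8 and 894.2 normalized counts to 119.0, 177.7 and 129.7 (log2 difference -2.49, SE 0.31, limma adjusted p = 0.00309). Its groups were far apart, and the call held whichever sample was removed. ID1 at -1.73 (limma adjusted p = 0.0702), MYC at -2.01 (0.053) and ID3 at -1.38 (0.251) were not called.

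Within the depleted condition several targets, singled out here after their values were seen, differed between samples in the manner of TGFB2, while others did not. LTBP2 and ANGPTL4 were highest in depleted replicate 1, and of the repressed targets ID1 and MYC were. PMEPA1, a feedback inhibitor of the pathway, was at 3700, 5135 and 4025 normalized counts in the controls and at 3113, 14497 and 13548 in the depleted samples. The matrix protein TGFBI was at 11070, 14783 and 17349 in the controls and at 6514, 41246 and 35480 in the depleted samples. For both genes depleted replicate 1 was below every control and the other depleted samples were above every control. With all samples PMEPA1 (log2 difference 1.0, limma adjusted p = 0.393) and TGFBI (0.58, 0.713) did not pass. Without depleted replicate 1 PMEPA1 did (log2 difference 1.72, limma adjusted p = 0.0332) and TGFBI did not (1.43, 0.133). In that fit 7 of the 12 induced targets were called, beside 5.41% of all genes.

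INHBA, which encodes activin A, a ligand that shares SMAD2 and SMAD3 with TGFβ, differed most of these genes between depleted samples. It was at 1306, 2060 and 1078 normalized counts in the controls and at 127.2, 5345 and 5919 in the depleted samples, so that depleted replicates 2 and 3 averaged 44.3 times replicate 1. Depleted replicate 1 was the lowest of the 3 depleted samples for 9 of the 12 induced targets, for 26 of the 43 other pathway genes and for 35.5% of all genes tested. Among the 10 core genes it was lowest for 4 (TGFB2, TGFBR1, SMAD2 and SMAD7) and highest for 6, beside 35.5% and 39.0% of all genes. TGFB1, TGFBR3 and decorin (DCN), a matrix proteoglycan that binds TGFβ, were highest in it, and DCN was at 4495 against 449.1 and 480.7. The basal keratin KRT5 was at 562.0 in it against 10908 and 14996, and VIM, the mesenchymal intermediate filament, at 44834 against 16542 and 19283. What sets this sample apart was not tested, and its depth of 17047310 reads lies between those of the other depleted samples.

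**Figure D5:**
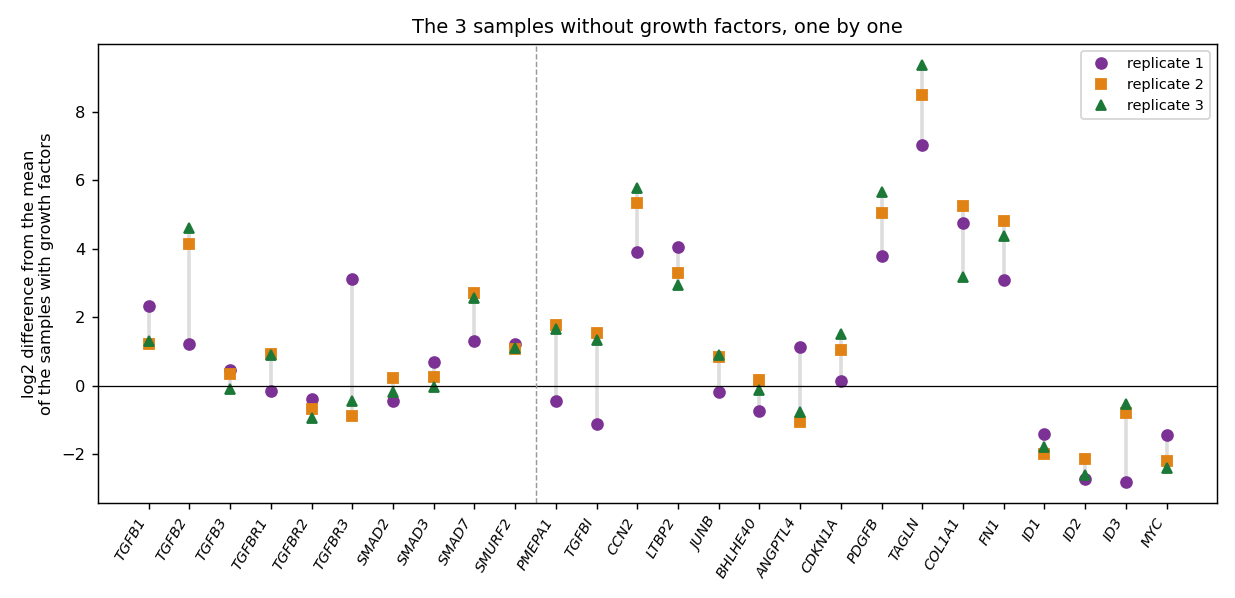
Log2 difference of each depleted sample (purple replicate 1, orange replicate 2, green replicate 3) from the mean of the samples with growth factors, for the 10 genes (left of the dashed line) and the TGFβ target genes (right). Replicate 1 lies far below the others for TGFB2, PMEPA1 and TGFBI and far above them for TGFBR3, whereas the samples coincide for SMURF2.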

How the data were processed

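Gene expression was measured by RNA-Seq in 6 MCF10A samples, 3 per condition, with conditions and replicate numbers taken from the labels. The design text of the deposit speaks of 2 replicates per sample and 6 in total. Each deposited value is a normalized signal (not a raw count) of 1 gene in 1 sample: per the methods and the processing notes, the authors trimmed single-end reads of 100 bases from ribosome-depleted, strand-specific libraries (cutadapt 1.6), aligned them to hg38 (TopHat2), obtained counts over Gencode genes (HTSeq 0.6) and scaled these by DESeq2 1.8.1 size factors (R 3.2.0). The third-highest sample of every listed gene holds 3 reads or more. All values were whole multiples (tolerance 0.01) of the value of 1 read in their sample, so reads were recovered. A count of 3 reads equals 1.76 to 6.71 normalized counts and covers counting error only.

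Names, coordinates, exons and canonical transcript lengths were taken from Gencode v44 (hg38), in which 18913 of the 19198 identifiers were found. Promoters came from the RefSeq table, where all 10 genes matched and the windows start at the canonical Gencode start.

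Conditions were compared with limma 3.58.1 in R 4.3.3 (lmFit, eBayes with trend) on log2(normalized count + 1) for genes with a mean of at least 10, so fold changes of low genes are understated. The procedure was tested on simulated data. Shares used an exact two-sided permutation test (scipy 1.17.1). The 10 genes, the pathway, target and marker lists (basal, luminal, fibroblast, immune, endothelial) and the rules were chosen with earlier results of these data known. An item of the target lists is not reported here and is not counted in them. Named genes are the 10, every called gene of the pathway and target lists, any uncalled gene with the largest change of its list, and the 3 genes most correlated with TGFB2. Other uncalled pathway or target genes and the markers were named after their values were seen. Alternatives were pseudocounts of 0.5 and 10, no filter, a mean of at least 50, equal totals, quantile normalization, a replicate block, each sample left out, edgeR 4.0.16 and DESeq2 1.42.0 on recovered reads, and a length and GC correction with and without the block.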

Additional observations from a re-analysis of the deposited data

How the results depend on the processing

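Over the 10 genes, 143 of 169 comparisons with other settings kept both direction and side of the threshold, 20 lost the call, 1 gained it and 5 changed direction. Only the 3 called genes had a call to lose, and most of the 169 comparisons were of genes that were not called. Of the 17 other settings, TGFB2 lost its call in 8, SMURF2 in 7 and SMAD7 in 5. The changes of direction were in genes that were not called: TGFB3 at -0.02 with quantile normalization, TGFBR3 at -0.68 and SMAD2 at 0.01 without depleted replicate 1, SMAD2 at 0.00 without control replicate 3, and SMAD3 at -0.20 without control replicate 1; over all removals of 1 sample these ranged from -0.68 to 1.33 (TGFBR3), -0.31 to 0.01 (SMAD2) and -0.20 to 0.80 (SMAD3). Pseudocounts, no filter, equal totals, quantile normalization, edgeR and DESeq2 each called 3 of the 10. A mean of at least 50 left out TGFB3 and lost TGFB2 (adjusted p = 0.0515), and the length and GC correction lost TGFB2 (0.0525). Leaving out 1 sample gave 0 to 3 calls among the 10, 2 to 7 among the 43 pathway genes, 7 to 8 among the 16 targets and 453 to 2474 among all genes, where all samples gave 3, 6, 7 and 1076; these fits have fewer samples. The pathway count fell to 2 without depleted replicate 2 or 3. DESeq2 called 2112 genes. Leaving out 1 sample, the difference between conditions was 7.81 to 36.5 percentage points for the TGFB2 share, -0.294 to 7.35 for the TGFBR3 share and -1.28 to 12.8 for the SMAD3 share. The TGFB2 difference was 7.81 without control replicate 3, 9.87 without depleted replicate 3 and 10.9 without depleted replicate 2, the SMAD3 share reversed without control replicate 1, and the TGFBR3 share without depleted replicate 1.

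With the replicate number as a block, TGFB2 (adjusted p = 0.0194) and SMAD7 (0.0233) stayed called and SMURF2 (0.141) did not, with 2 calls among the 10, 7 in the pathway, 8 among the targets and 967 among all genes. With the block and the length and GC correction 0 of the 10 and 703 of all genes were called (TGFB2 0.0799, SMAD7 0.0606, SMURF2 0.115). Deviations of samples with the same number correlated at -0.073, -0.283 and -0.323, and those with different numbers at 0.114 on average. With deviations taken within groups of 3 samples, this cannot decide whether the numbers pair the samples. Depth limits TGFB3, ACVR1C and FST, which rest on few reads in some samples. The cause of these changes was not tested.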
